A study of Mus musculus with 11 samples.

Results

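The elastic fiber and microfibril genes encode the extracellular fibers that let a tissue stretch and recoil, together with the enzyme that cross-links them. The set was taken by gene symbol and holds elastin (Eln), the fibrillins Fbn1 and Fbn2, the fibulins Fbln1, Fbln2 and Fbln5, the microfibril-associated proteins Mfap4 and Mfap5, the lysyl oxidase Lox and the emilin Emilin1. Of these 10 genes, 9 had a probe set with a single gene symbol, out of 18193 genes with such a probe set. Fbn1 was not analysed here.

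The data are 11 Affymetrix mouse A430 arrays of RNA from 6 sorted populations, and each value is a log2 signal after robust multichip averaging (RMA), so a difference of 1 is a 2-fold change. Periosteal skeletal stem/progenitor cells (P-SSCs, 2 arrays) were Mx1+Ocn- cells of Mx1-Cre; Rosa-Tomato; Osteocalcin-GFP mice. Marrow skeletal stem/progenitor cells (BM-SSCs, 2 arrays) were Mx1+Nes+ cells of Mx1-Cre; Rosa-Tomato; Nestin-GFP mice. Both were sorted as negative for CD45, CD31 and Ter119 and positive for CD105 and CD140a. The Cre of these mice is driven by the interferon-inducible Mx1 promoter, which is also active in blood-forming cells. According to the methods of the study, all Mx1 mice were irradiated at 4 weeks of age with 9.5 Gy and received wild-type C57BL/6 marrow, so their blood cells were donor-derived and their stroma was their own. After 6 to 8 weeks they were given pIpC, which switches Mx1-Cre on, in doses of 25 mg per kg on alternate days over 10 days.

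CD51+ BMSCs (2 arrays) were marrow cells negative for CD45, CD31 and Ter119 and positive for CD51, the integrin alpha V chain. The methods of the study add CD105 and CD140a to this gate, and the labels do not. Osx+ osteoprogenitors (2 arrays) had the same negative gate and expressed GFP from the promoter of Osterix (Sp7), the osteoblast transcription factor. CD45+ hematopoietic cells (2 arrays) came from marrow. Nes+ BMSCs (1 array) were Nestin-GFP marrow cells, negative for CD45, CD31 and Ter119 and positive for CD105 and CD140a, with or without Mx1 activity. Genotype, treatment and age of the mice behind the CD51+, Osx+ and CD45+ cells were not given in the sources used here, nor was the age of any mouse at collection. Beyond Nestin-GFP, genotype and treatment of the mice behind the Nes+ array were not stated for that array. Osx+ and Nes+ arrays carry periosteal tissue as their labelled source, whereas the Nes+ title names marrow. For each RNA the study pooled cells of several male and female mice, and it calls paired arrays biological repeats without saying whether they differ in their mice. The p-values below thus measure the spread between these arrays, which may be technical.

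The second array of either SSC population stood apart from the other 9 arrays. For P-SSC and BM-SSC array 2, in that order, the 3′ beta-actin control signals were 7.81 and 12.78, against 13.23 to 14.25 elsewhere. The mean of 10 ribosomal protein genes was 6.66 and 11.17, against 11.55 to 12.49. The bioB hybridization control ran the other way, at 13.68 and 12.04 against 6.44 to 11.58. Over all probe sets the P-SSC arrays correlated at 0.456 and the BM-SSC arrays at 0.771, whereas the other pairs reached 0.985 to 0.995. Values from a fit of the remaining 9 arrays therefore stand beside most results below that rest on an SSC population. In that 9-array fit each SSC population is a single array, which is assumed to vary like the replicated populations.

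Elastic fibers form in steps. Fibrillins polymerize into microfibrils in the extracellular space, and these bind the microfibril-associated glycoproteins and latent TGF-beta binding proteins. Fibulins and emilins lie between the microfibrils and the elastin core, and lysyl oxidase, a copper enzyme, cross-links tropoelastin and collagen. In the skeleton such fibers are known from periosteum, ligament, perichondrium and the walls of blood vessels.

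Across populations, elastic fiber genes were lowest in CD45+ cells for 8 of the 9 measured members, and 5 of the 9 were highest in CD51+ BMSCs, as group means. A test for any difference among the 6 populations (limma F test, Benjamini-Hochberg adjustment over 45037 probe sets) was passed by 3 of 9 members, beside 6.36% of all probe sets. These were Eln (adjusted p = 0.0158), Fbln5 (adjusted p = 0.0322) and Mfap5 (adjusted p = 0.0397). The others had an adjusted p of 0.0544 (Fbln2) to 0.370 (Emilin1). All 9 passed in the 9-array fit, where 69.2% of all probe sets did. Signal of a sorted population is a mean over its cells, so fewer expressing cells and less RNA per cell cannot be told apart.

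Promoter sequence is shown for 2 fibulins, Fbln1 and Fbln5, which were picked by their annotated start and not by level. Their levels moved together over the 11 arrays (Pearson r = 0.911, a description). Fbln2 was closer to each (r = 0.986 with Fbln1, 0.956 with Fbln5), and its window, not printed, held 1 GC box. The lines give the 250 bases upstream of the RefSeq start in GRCm38.p6, read 5′ to 3′ along the gene. They are Fbln1 at chr15:85205699-85205948 on the plus strand and Fbln5 at chr12:101819120-101819369 on the minus strand. Capitals mark a match to 5 motifs searched on both strands. They were TATAAA for the TATA box, CCAAT for the box of that name, GGGCGG for the GC box, TGANTCA for the AP-1 element and GGAATG for the TEAD element.
Fbln1: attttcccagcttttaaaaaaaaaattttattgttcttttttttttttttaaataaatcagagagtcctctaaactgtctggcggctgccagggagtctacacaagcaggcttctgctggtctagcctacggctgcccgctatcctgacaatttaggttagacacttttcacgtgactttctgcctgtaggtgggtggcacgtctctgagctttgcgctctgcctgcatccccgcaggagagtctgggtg
Fbln5: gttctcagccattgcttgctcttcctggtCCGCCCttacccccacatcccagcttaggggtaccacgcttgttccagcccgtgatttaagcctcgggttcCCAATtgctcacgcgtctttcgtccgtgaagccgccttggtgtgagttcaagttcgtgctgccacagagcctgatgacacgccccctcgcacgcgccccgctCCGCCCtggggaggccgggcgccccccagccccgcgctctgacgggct
The Fbln5 window had a GC content of 65.2% and held 1 CCAAT box and 2 GC boxes, both written here as the reverse complement CCGCCC. The Fbln1 window had a GC content of 46.4% and held none of the 5 motifs, so the 2 windows share no match. Among 27025 mouse promoter windows of the same length, 34.53% held a CCAAT box, 32.96% a GC box, 12.98% a TATA box, 12.64% a TEAD element and 6.853% an AP-1 element. A match to such short letters is a description and no site. RefSeq windows matched 4 of the 9 measured members.

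**Figure D1:**
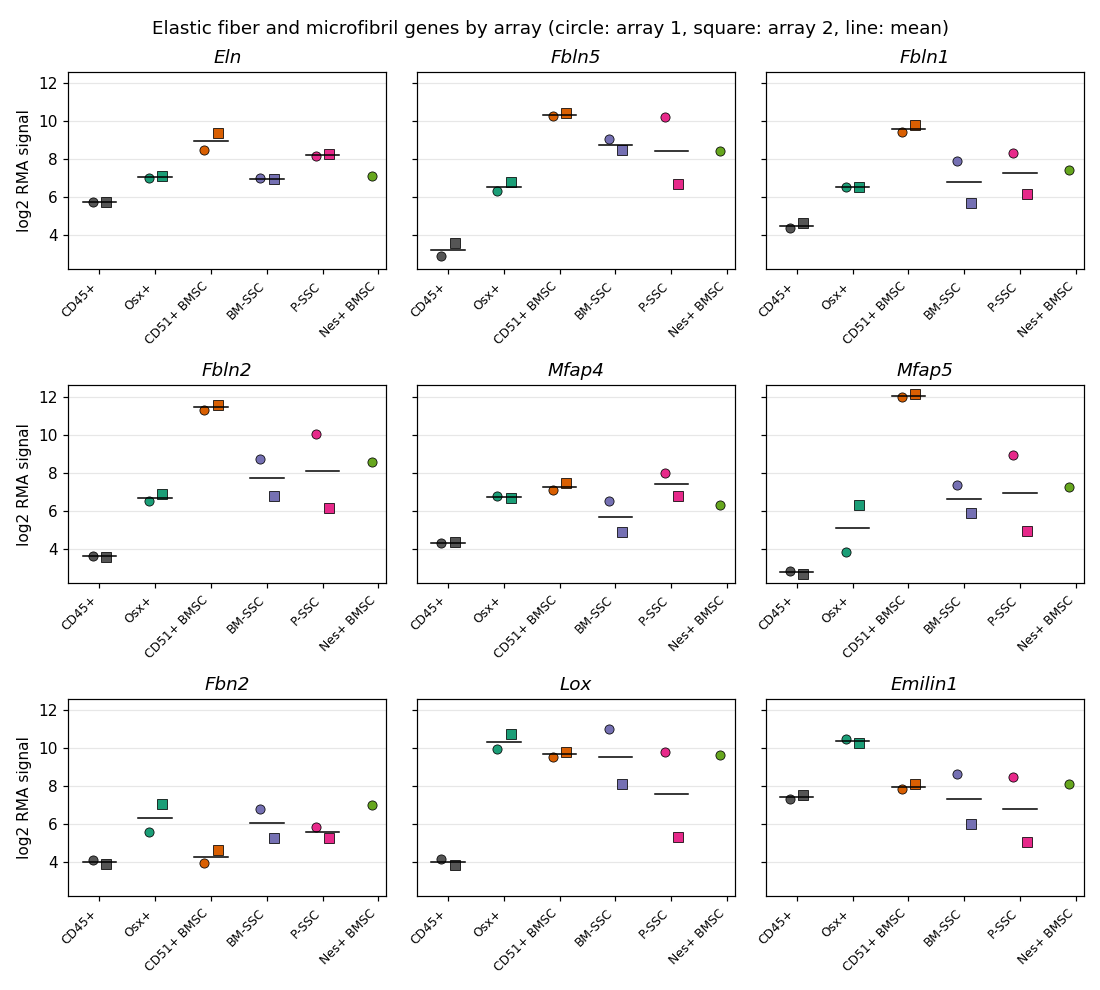
Log2 RMA signal of each measured elastic fiber gene (y axis) on every array, by population (x axis), with array 1 as a circle, array 2 as a square and the mean of a pair as a line. CD51+ BMSCs are at the top for Eln, Mfap5 and the 3 fibulins, Osx+ cells are at the top for Emilin1, and the square of the P-SSCs falls below the circle for 8 of the 9 genes.

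Elastin, the polymer that gives the fiber its recoil, was measured with probe set 1420855_at. The Eln signal was 5.75 and 5.77 on the CD45+ arrays, 7.03 and 7.13 on Osx+, 8.5 and 9.40 on CD51+ BMSC, 7.01 and 6.95 on BM-SSC, 8.15 and 8.26 on P-SSC and 7.11 on the Nes+ array. CD51+ BMSCs were highest on both arrays, with P-SSCs next, and the BM-SSC, Nes+ and Osx+ arrays lay between 6.95 and 7.13. Eln moved least with the 2 arrays that stood apart: its SD over the paired arrays was 0.0451 in BM-SSCs and 0.0790 in P-SSCs, against 0.382 or more for every other member.

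Fibulins are glycoproteins of elastic fibers and basement membranes. Fbln5, which binds elastin and integrins and is needed for elastic fiber assembly, read 2.90 and 3.59 on the CD45+ arrays, 6.33 and 6.79 on Osx+, 10.28 and 10.41 on CD51+ BMSC, 9.05 and 8.47 on BM-SSC, 10.21 and 6.70 on P-SSC and 8.45 on Nes+ (probe set 1416164_at). P-SSC array 1 thus lay beside the CD51+ arrays and P-SSC array 2 beside the Osx+ arrays. Fbln1, a fibulin of fibers and basement membranes, read 4.4 and 4.64 in CD45+ cells, 6.56 and 6.52 in Osx+ cells, 9.46 and 9.78 in CD51+ BMSCs, 7.93 and 5.72 in BM-SSCs, 8.33 and 6.19 in P-SSCs and 7.44 in Nes+ BMSCs (1451119_a_at). For Fbln2, which binds fibrillin and tropoelastin, the values were 3.65 and 3.60, 6.51 and 6.88, 11.31 and 11.57, 8.71 and 6.76, 10.05 and 6.13, and 8.54, in the same order of populations (1423407_a_at). Fbln1 and Fbln2 had the same order of group means, CD51+ BMSC over P-SSC over BM-SSC over Osx+ over CD45+. Array 2 of each SSC population lay below both Osx+ arrays for Fbln1. For Fbln2, BM-SSC array 2 lay between the Osx+ arrays and P-SSC array 2 below them.

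Microfibril proteins differed among themselves. Mfap5, a glycoprotein that binds fibrillin, read 2.83 and 2.69 on the CD45+ arrays, 3.86 and 6.30 on Osx+, 11.99 and 12.12 on CD51+ BMSC, 7.36 and 5.89 on BM-SSC, 8.94 and 4.94 on P-SSC and 7.24 on Nes+ (1418454_at). The CD51+ arrays were far above all others, with P-SSC array 1 the nearest, and the Osx+ pair was spread widely. Mfap4, which binds elastin, fibrillin and collagen, was at 4.29 and 4.38 in CD45+ cells, 6.79 and 6.67 in Osx+ cells, 7.08 and 7.47 in CD51+ BMSCs, 6.5 and 4.86 in BM-SSCs, 8.0 and 6.77 in P-SSCs and 6.29 in Nes+ BMSCs (1424010_at). It was the only measured member with its highest group mean in P-SSCs, and the P-SSC and CD51+ arrays overlapped. Fbn2, the fibrillin best known from developing tissue, was at 4.14 and 3.92 in CD45+, 5.62 and 7.06 in Osx+, 3.95 and 4.66 in CD51+ BMSC, 6.81 and 5.29 in BM-SSC, 5.85 and 5.31 in P-SSC and 7.0 in Nes+ cells (1422831_at). Here CD51+ BMSCs overlapped the CD45+ cells, and the highest values were those of Osx+ array 2, the Nes+ array and BM-SSC array 1.

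Lox, whose product cross-links elastin and collagen, read 4.15 and 3.84 on the CD45+ arrays, 9.94 and 10.75 on Osx+, 9.56 and 9.81 on CD51+ BMSC, 11 and 8.10 on BM-SSC, 9.81 and 5.35 on P-SSC and 9.67 on Nes+ (1416121_at). All stromal arrays apart from array 2 of the SSCs lay between 9.56 and 11. Emilin1, an elastin interface protein, read 7.32 and 7.55 in CD45+ cells, 10.46 and 10.30 in Osx+ cells, 7.85 and 8.13 in CD51+ BMSCs, 8.67 and 6.02 in BM-SSCs, 8.48 and 5.10 in P-SSCs and 8.11 in Nes+ BMSCs (1416414_at). Osx+ cells were highest on both arrays, and both CD45+ arrays exceeded array 2 of each SSC population.

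In the order of group means over the 5 replicated populations, no step between neighbouring populations passed for any of the 9 members (adjusted p over 0.05 in limma). In the 9-array fit all 4 neighbouring steps passed for Fbln2, 3 for Fbln1, 2 each for Eln, Fbln5, Mfap4, Mfap5 and Emilin1, 1 for Lox and 0 for Fbn2. The passing steps of Fbln2 included P-SSC over BM-SSC.

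Comparison with CD45+ cells asked how the stromal populations differ from blood cells. In CD51+ BMSCs 6 of 9 members were higher than in CD45+ cells, beside 2.95% of all probe sets called higher. Mfap5 rose 628-fold (log2 difference 9.30 ± 1.29 SE, limma adjusted p = 0.00893), Fbln2 226-fold (7.82 ± 1.16, adjusted p = 0.0109) and Fbln5 137-fold (7.10 ± 0.974, adjusted p = 0.00871). Fbln1 rose by 5.10 ± 0.843 (adjusted p = 0.0155), Eln by 3.19 ± 0.365 (adjusted p = 0.00480) and Mfap4 by 2.94 ± 0.603 (adjusted p = 0.0323). The differences of Lox (5.69, adjusted p = 0.0612), Emilin1 (0.56, adjusted p = 1) and Fbn2 (0.27, adjusted p = 1) did not pass. The median over the 9 members was 5.10, beside -0.085 over all probe sets. CD45+ signals of the members other than Eln and Emilin1 lay near or below the array median of 4.43 and no detection call was used, so the folds rest on dim signals.

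P-SSCs had 3 of 9 members higher than CD45+ cells, beside 2.48% of probe sets called higher: Fbln5 by 5.21 ± 0.974 (adjusted p = 0.0189), Mfap4 by 3.05 ± 0.603 (adjusted p = 0.0227) and Eln by 2.45 ± 0.365 (adjusted p = 0.00856). Fbln2 had a difference of 4.47 (adjusted p = 0.0519), and Emilin1 one of -0.64 (adjusted p = 0.655). BM-SSCs had 1 of 9 higher, beside 2.18%: Fbln5 by 5.52 ± 0.974 (adjusted p = 0.0161), with Lox at 5.55 (adjusted p = 0.0532). Osx+ cells had 2 of 9 higher, beside 3.65%: Lox by 6.34 ± 1.41 (81.3-fold, adjusted p = 0.0306) and Mfap4 by 2.40 ± 0.603 (adjusted p = 0.0490). Emilin1 was 2.95 above CD45+ cells in Osx+ cells (adjusted p = 0.196) and was separated from them on every array. None of the 9 was called lower in these 4 comparisons, which share the CD45+ arrays, beside 2.90% (CD51+), 7.29% (P-SSC), 6.26% (BM-SSC) and 5.62% (Osx+) of probe sets called lower. The median difference of the members was 3.05 for P-SSC, 2.31 for BM-SSC and 2.40 for Osx+ cells, beside 0.384, 0.177 and 0.0154 over all probe sets.

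From 9 arrays, 9 of 9 members were higher in P-SSCs than in CD45+ cells, beside 22.6% of probe sets called higher. The same count was 9 for BM-SSCs (beside 15.3%), 9 for Osx+ cells (18.0%) and 8 for CD51+ BMSCs (14.7%), where Fbn2 did not pass. Emilin1 in P-SSCs then lay 1.05 above CD45+ cells (adjusted p = 0.00374). In the fit of all arrays, the member calls against CD45+ cells were lost when either CD45+ array was left out. The share of all probe sets called higher fell as well in each of the 4 comparisons. In CD51+ BMSCs, most calls were also lost without CD51+ array 1 and all without CD51+ array 2, and that share fell in both fits. Such fits leave 1 array in a population, so counts are not given.

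**Figure D2:**
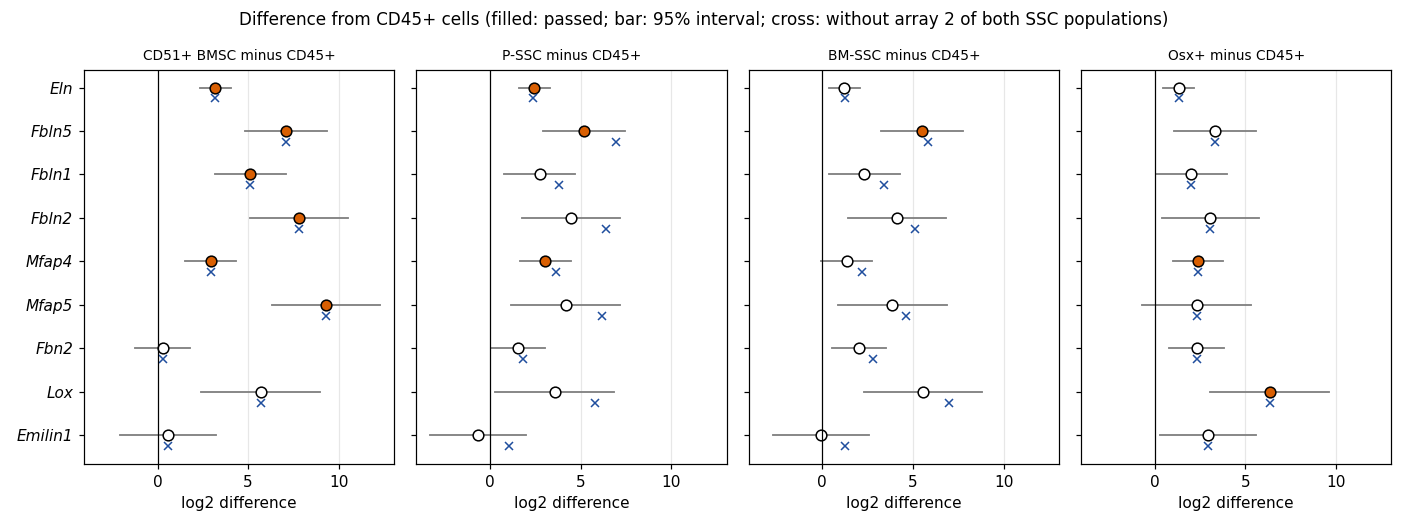
Log2 difference of each member from CD45+ cells (x axis) in 4 populations, with the 95% interval of that gene alone as a bar. Filled circles passed at an adjusted p under 0.05 (6 for CD51+ BMSCs, 3 for P-SSCs, 1 for BM-SSCs, 2 for Osx+ cells), and crosses are the values of the 9-array fit.

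Osx+ osteoprogenitors served as the second control, the more differentiated cells of the bone lineage. CD51+ BMSCs had 2 of 9 members higher than Osx+ cells, beside 1.51% of probe sets called higher: Mfap5 by 6.98 ± 1.29 (126-fold, adjusted p = 0.0379) and Eln by 1.87 ± 0.365 (3.65-fold, adjusted p = 0.0481). The directions of the uncalled members were mixed. Fbln2 had a difference of 4.74 (adjusted p = 0.110), whereas Fbn2 had a difference of -2.04 (adjusted p = 0.262), with Osx+ cells above. Both calls were lost without either array of the CD45+, BM-SSC, CD51+ or Osx+ cells, and more members were called without either P-SSC array. The share of all probe sets called moved as well. It fell without a CD45+, CD51+ or Osx+ array and rose without a BM-SSC or P-SSC array. In the 9-array fit 5 members were higher and 2, Fbn2 and Emilin1, were lower in CD51+ BMSCs, beside 13.3% and 11.4% of probe sets.

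No member passed between an SSC population and Osx+ cells: 0 of 9 were called for P-SSCs (beside 0.808% of probe sets in either direction) and 0 of 9 for BM-SSCs (0.615%), with 2 and 1 at an unadjusted limma p under 0.05. The most negative differences were those of Emilin1, -3.59 for P-SSCs (95% interval -6.24 to -0.95, adjusted p = 0.231) and -3.03 for BM-SSCs (-5.68 to -0.39, adjusted p = 0.460). With 9 arrays, 6 members were higher and 1 lower in P-SSCs, beside 12% and 14% of probe sets, and 3 were higher and 1 lower in BM-SSCs, beside 7.15% and 7.46%. The 3 fibulins were higher and Emilin1 lower than in Osx+ cells in both SSC populations. In P-SSCs Eln, Mfap4 and Mfap5 were higher as well.

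Marrow CD51+ BMSCs and the Mx1-marked cells were compared as differently gated stroma. No member was called for P-SSCs against CD51+ BMSCs (0 of 9, beside 0.595% in either direction) or BM-SSCs against CD51+ BMSCs (0 of 9, beside 0.617%), with 3 and 6 at an unadjusted limma p under 0.05. Mfap5 had the differences farthest from 0, at -5.12 (95% interval -8.11 to -2.13, adjusted p = 0.164) in P-SSCs and -5.43 (-8.42 to -2.44, adjusted p = 0.166) in BM-SSCs. Eln in BM-SSCs had a difference of -1.97 (-2.82 to -1.12, adjusted p = 0.0821). Fbn2 ran the other way, at 1.75 in BM-SSCs (0.24 to 3.26, adjusted p = 0.393). The 9-array fit called 6 members lower and 2, Fbn2 and Lox, higher in BM-SSCs than in CD51+ BMSCs, beside 8.60% and 5.61% of probe sets. In P-SSCs, Fbln1, Fbln2 and Mfap5 were then lower and Mfap4 higher, beside 15.9% and 13.7%.

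**Figure D3:**
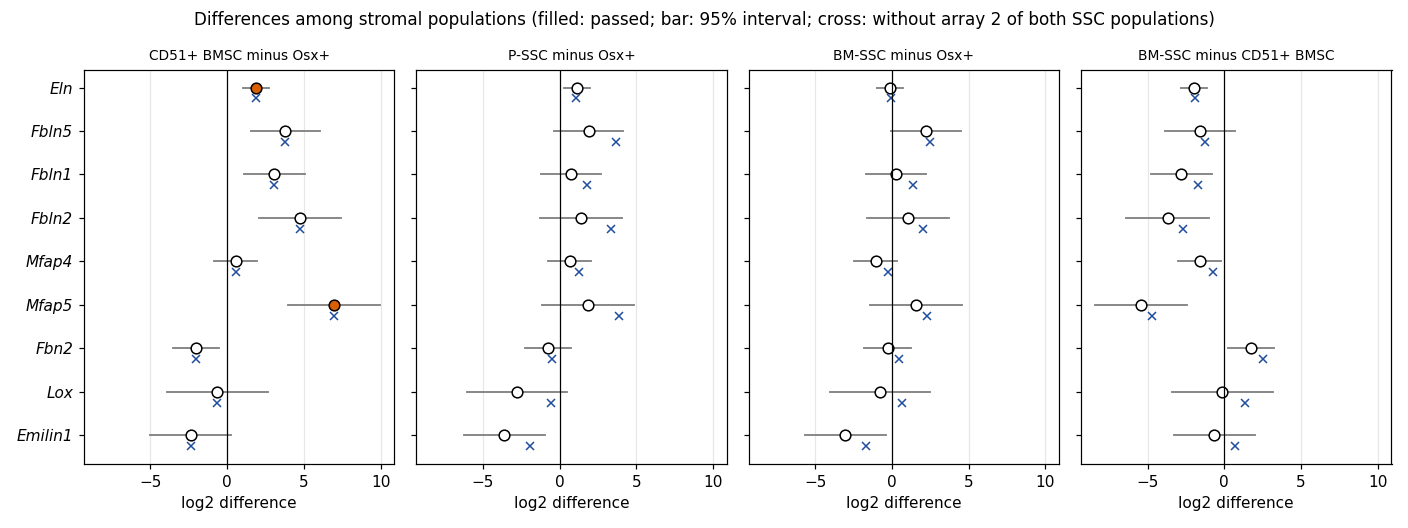
Log2 difference of each member (x axis) in 4 comparisons among stromal populations, with the 95% interval of that gene alone as a bar. Filled circles passed at an adjusted p under 0.05, which were Eln and Mfap5 in CD51+ BMSCs against Osx+ cells, and crosses are the values of the 9-array fit.

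Between P-SSCs and BM-SSCs, the pair at the center of the study, 0 of 9 members passed at 2 arrays each, and 0 of 45037 probe sets did (0% called, adjusted p under 0.05 in limma). Eln and Mfap4 had an unadjusted p under 0.05, with P-SSCs above. The Eln difference was 1.23 (95% interval 0.38 to 2.08, adjusted p = 0.980), and its P-SSC arrays lay above both BM-SSC arrays. The Mfap4 difference was 1.70 (0.30 to 3.10, adjusted p = 0.980), and its arrays did not overlap either. The intervals of the other 7 members included 0 and reached from -5.25 to 3.30. With 9 arrays, where each population has a single array, Mfap4 (1.5, adjusted p = 0.0276) and Fbln2 (1.34, adjusted p = 0.0422) were higher in P-SSCs, beside 0.464% of probe sets called higher. The mean of 8 endothelial genes was 6.65 on that P-SSC array, the highest of the 11 arrays, and 5.68 on that BM-SSC array, and its part was not tested. This list includes Kdr and Flt1, which the study reports as raised in P-SSCs sorted without CD31+ cells. By flow cytometry the study found KDR on most P-SSCs, also in Prx1-GFP mice. Whether endothelial cells add to the list mean was not tested.

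BM-SSCs against the single Nes+ array gave 0 of 9 members called (beside 0% of probe sets), 0 of 9 at an unadjusted limma p under 0.05, and differences between -0.95 and 0.31. In the 9-array fit Lox was 1.34 higher in the remaining BM-SSC array, beside 15.8% of probe sets called higher.

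Over the 11 arrays the members formed a group and 2 outliers. The 36 pairwise Pearson correlations had a median of 0.713 and ranged from -0.063 (Eln with Emilin1) to 0.986 (Fbln1 with Fbln2), and 22 exceeded 0.5. Emilin1 had a median r of 0.215 and Fbn2 one of 0.230 with the other members, and the remaining 7 had medians of 0.682 to 0.848. These correlations describe arrays that share populations and the 2 arrays that stood apart. Without those 2, the median over pairs was 0.748 and 24 pairs exceeded 0.5.

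Genes most like each member in pattern were sought over the 11 arrays among 11867 genes with a range of at least 2 log2 units. Mfap5 ran closest to Nova1 (r = 0.993), an RNA-binding protein, and Clec3b (r = 0.990), which encodes tetranectin. Fbln2 ran closest to Fgf18 (r = 0.991) and Bmp4 (r = 0.989), both growth factors of the skeleton. Fbln5 was closest to Sfrp4 (r = 0.990), a secreted Wnt antagonist, and the activin antagonist Fst (r = 0.979), and Fbln1 to Gprc5b (r = 0.989) and Wnt9a (r = 0.986). Lox ran with Cacna2d1 (r = 0.994) and the protocadherin Fat1 (r = 0.993), and Emilin1 with Hdlbp (r = 0.994) and the cargo receptor Lman1 (r = 0.985). Eln was closest to the dystrophin gene Dmd (r = 0.978) and Coro2b (r = 0.957), Mfap4 to Svep1 (r = 0.959) and Dnaja4 (r = 0.950), and Fbn2 to Insc (r = 0.933) and Tbx2 (r = 0.924). The mean of the centered members was most like Mpdz (r = 0.991), the sulfatase Sulf1 (r = 0.990), Pamr1 (r = 0.988), Fndc1 (r = 0.987) and Medag (r = 0.987). Without the 2 arrays that stood apart, these values were 0.925 to 0.996.

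Some genes have further probe sets, which did not always follow the brightest. The second sets of Mfap5, Lox and Fbln1 ran alike with the values above, and that of Mfap5 was 7.02 higher in CD51+ BMSCs than in CD45+ cells (adjusted p = 0.00359) and lower in BM-SSCs than in CD51+ BMSCs (-4.64, adjusted p = 0.0461, or -4.24 from 9 arrays). The second Fbn2 set was highest on BM-SSC array 1, at 7.04. The second Emilin1 set was highest in Osx+ cells, at 7.25 and 7.90, and 1.61 above CD45+ cells (adjusted p = 0.0404). The third Fbln1 set had another pattern than the brightest: it was highest on array 2 of the P-SSCs (7.38) and BM-SSCs (6.70), against 5.80 and 6.05 in CD51+ BMSCs and 4.54 to 6.02 on the other arrays. Other sets stayed low on all arrays: the second Eln set between 4.56 and 5.88, the second Fbln5 set between 3.45 and 5.48, the second Fbln2 set between 2.02 and 3.98 and the third Lox set between 2.36 and 3.45. The second Fbln2 set still passed against CD45+ cells in CD51+ BMSCs (1.72, limma adjusted p = 0.0318) and P-SSCs (1.38, adjusted p = 0.0492, or 1.05 from 9 arrays). The second Eln set did not follow the brightest, at -0.105 in CD51+ BMSCs against CD45+ cells. The second Eln and Fbln5 sets were highest on array 2 of both SSC populations.

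Other genes of the fiber pathway were taken from a list of 45 genes in 5 roles, of which 42 were measured. Against CD45+ cells, 13 of the 42 were higher and 2 lower in CD51+ BMSCs, beside 2.95% and 2.90% of all probe sets. P-SSCs had 4 higher and 4 lower (beside 2.48% and 7.29%), BM-SSCs 5 and 4 (2.18% and 6.26%), and Osx+ cells 8 and 5 (3.65% and 5.62%). Against Osx+ cells, CD51+ BMSCs had 5 higher and 1 lower, beside 1.51% and 0.711%. Each SSC population had 0 higher and 1 lower than Osx+ cells, beside 0.808% (P-SSC) and 0.615% (BM-SSC) called either way. Each had 0 higher and 2 lower than CD51+ BMSCs, beside 0.595% and 0.617% either way, and none of the 42 passed between P-SSCs and BM-SSCs. In the 9-array fit 0 of these calls were lost. It called 28 of the 42 higher and 7 lower in CD51+ BMSCs than in CD45+ cells, beside 14.7% and 21.7% of probe sets. For P-SSCs it called 29 and 9, beside 22.6% and 26.0%, for BM-SSCs 28 and 7, beside 15.3% and 22.0%, and for Osx+ cells 28 and 8, beside 18.0% and 23.4%.

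Of the 14 genes of microfibril and TGF-beta binding, 5 were higher in CD51+ BMSCs than in CD45+ cells, beside 2.95% of all probe sets. The same count was 2 for P-SSCs (beside 2.48%), 1 for BM-SSCs (2.18%) and 2 for Osx+ cells (3.65%). Ltbp4, which holds latent TGF-beta and guides elastin deposition, read 9.23 and 9.39 on the CD51+ arrays and 4.16 to 6.49 on the others. It was 4.84 above CD45+ cells (adjusted p = 0.00428) and 4.09 above Osx+ cells (adjusted p = 0.00907), and lower in P-SSCs (-3.40, adjusted p = 0.0449) and BM-SSCs (-3.44, adjusted p = 0.0439) than in CD51+ BMSCs. The last 2 differences were -2.82 and -2.88 in the 9-array fit. Adamtsl4, a fibrillin-binding protein, was likewise highest in CD51+ BMSCs (8.75 and 9.09) and passed against CD45+ cells (4.15, adjusted p = 0.00825) and Osx+ cells (3.31, adjusted p = 0.0267). The proteoglycan gene Bgn was within 12.45 to 13.47 on all stromal arrays except P-SSC array 2, where it was 6.92.

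Among the 7 other fibulins and emilins measured, Efemp1, which encodes fibulin-3, was highest in CD51+ BMSCs like Fbln1 and Fbln2. It read 1.82 and 2.46 in CD45+ cells and 11.51 and 11.66 in CD51+ BMSCs (difference 9.44, adjusted p = 0.0223). Emilin2 had another pattern than Emilin1. It read 9.63 and 9.27 in CD45+ cells and 9.92 and 10.04 in CD51+ BMSCs, and it was lower in Osx+ cells than in CD45+ cells (-4.49, adjusted p = 0.0182). Mmrn2, an endothelial matrix protein, was highest on array 1 of the P-SSCs (7.50) and BM-SSCs (7.35), and no comparison passed.

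Of the 7 lysyl oxidase and processing genes measured, Loxl4, a lysyl oxidase paralog, was highest in Osx+ cells. It read 10.20 and 10.52 on the Osx+ arrays and 3.61 to 6.06 on the other 9. It was 6.61 higher in Osx+ than in CD45+ cells (adjusted p = 0.000166), and lower than in Osx+ cells in P-SSCs (-4.78, adjusted p = 0.00190), BM-SSCs (-4.42, adjusted p = 0.00255) and CD51+ BMSCs (-4.66, adjusted p = 0.00189). From 9 arrays the P-SSC and BM-SSC differences were -4.74 and -4.54. Bmp1, the protease that activates pro-lysyl oxidase, was higher than in CD45+ cells in all 4 stromal populations, by 3.0 to 4.34, and from 9 arrays by 3.76 in P-SSCs and 4.53 in BM-SSCs. Pcolce, which enhances procollagen processing, was higher in CD51+ BMSCs (9.53, adjusted p = 0.0412) and Osx+ cells (8.32, adjusted p = 0.0490).

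Of 8 elastin-degrading proteases measured, each of P-SSCs, BM-SSCs and Osx+ cells had 4 lower than CD45+ cells, beside 7.29%, 6.26% and 5.62% of all probe sets called lower, and CD51+ BMSCs had 2, beside 2.90%. Cathepsin S (Ctss) read 12.98 and 12.87 in CD45+ cells, 10.22 and 9.98 in CD51+ BMSCs and 4.31 to 6.40 elsewhere. Mmp9, a gelatinase of neutrophils and osteoclasts, read 11.15 on both CD45+ arrays, 9.83 and 10.25 in CD51+ BMSCs and 4.70 to 6.96 elsewhere. Neutrophil elastase (Elane) read 9.41 and 9.73 on the CD45+ arrays and 4.44 to 6.41 on the others. The matrix protease Mmp2, named after its values were seen, ran the other way and was higher than in CD45+ cells in CD51+ BMSCs (7.63), Osx+ cells (7.54) and BM-SSCs (7.13, or 8.52 from 9 arrays). Of 6 integrin subunits that bind RGD sites, such as that of Fbln5, Itgb8 was higher in CD51+ BMSCs (2.99, adjusted p = 0.0173) and BM-SSCs (2.41, adjusted p = 0.0295, or 3.14 from 9 arrays), and Itgb5 in Osx+ cells (3.42, adjusted p = 0.0421), than in CD45+ cells. Itgb3 was at 7.67 to 7.87 in CD45+ cells and CD51+ BMSCs and at 3.2 to 6.25 elsewhere.

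**Figure D4:**
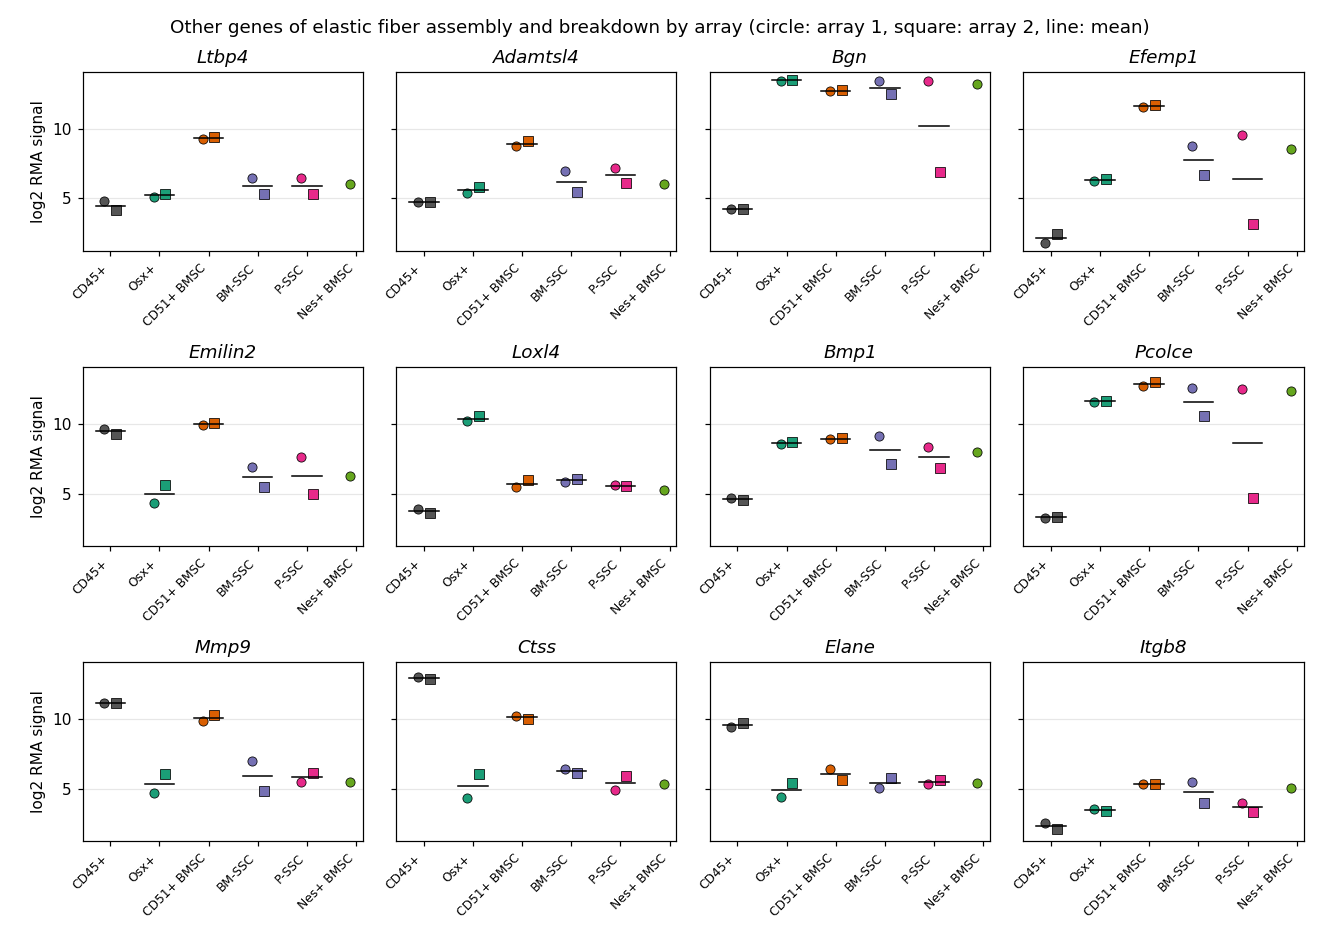
Log2 RMA signal of 12 other genes of elastic fiber assembly and breakdown (y axis) on every array, by population (x axis), with array 1 as a circle, array 2 as a square and the mean of a pair as a line. Ltbp4, Adamtsl4 and Efemp1 are highest in CD51+ BMSCs, Loxl4 in Osx+ cells, and the proteases Mmp9, Ctss and Elane in CD45+ cells.

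Marker genes were read beside the members, since other cell types moved with them. The CD51+ gate excludes CD45, yet its gene Ptprc read 10.23 and 10.17 on the CD51+ arrays, against 12.06 and 12.05 in CD45+ cells and 2.42 to 7.42 elsewhere. The mean of 8 blood cell genes was 9.89 and 9.71 in CD51+ BMSCs, 11.79 and 11.68 in CD45+ cells and 3.45 to 7.15 elsewhere. A list of 6 skeletal muscle genes was at 7.23 and 8.12 in CD51+ BMSCs and 3.77 to 5.27 elsewhere. All 9 members were higher on CD51+ array 2 than on array 1. So were the skeletal muscle, fibroblast, endothelial, chondrocyte, marrow stroma, osteoblast and sorting gene lists, so the rise was not particular to any of them. The blood cell, smooth muscle and ribosomal lists were lower on array 2.

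Fibroblast genes of periosteum, tendon and adventitia (9 of 9 measured) had list means of 10.91 and 11.07 for CD51+ BMSCs, 10.46 and 5.99 for P-SSCs, 9.71 and 8.19 for BM-SSCs, 9.61 in Nes+ BMSCs, 8.26 and 8.82 in Osx+ cells and 4.78 and 4.95 in CD45+ cells. The part of these cells, of blood cells and of muscle in the CD51+ values was not tested. A list of 7 chondrocyte genes was at 13.08 and 13.15 in Osx+ cells, where Emilin1 and Loxl4 were also highest, and at 3.50 to 9.52 elsewhere, and its part was not tested. Sorted genes followed their gates in part: Sp7 was highest in Osx+ cells (8.93 and 8.58), while Nes was at 7.41 in Nes+ BMSCs, 6.17 and 7.08 in BM-SSCs and 6.94 and 7.42 in P-SSCs. Pdgfra, the gene of CD140a, was at 11.28 and 4.41 in P-SSCs and 10.95 and 6.90 in BM-SSCs. Itgav, the gene of CD51, was not highest in CD51+ BMSCs. It was at 10.10 to 10.27 there and at 10.73 to 10.79 in Osx+ cells. In BM-SSCs it was at 7.39 to 10.50, in P-SSCs at 4.23 to 10.31, in Nes+ BMSCs at 9.94 and in CD45+ cells at 8.75 to 8.79.

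**Figure D5:**
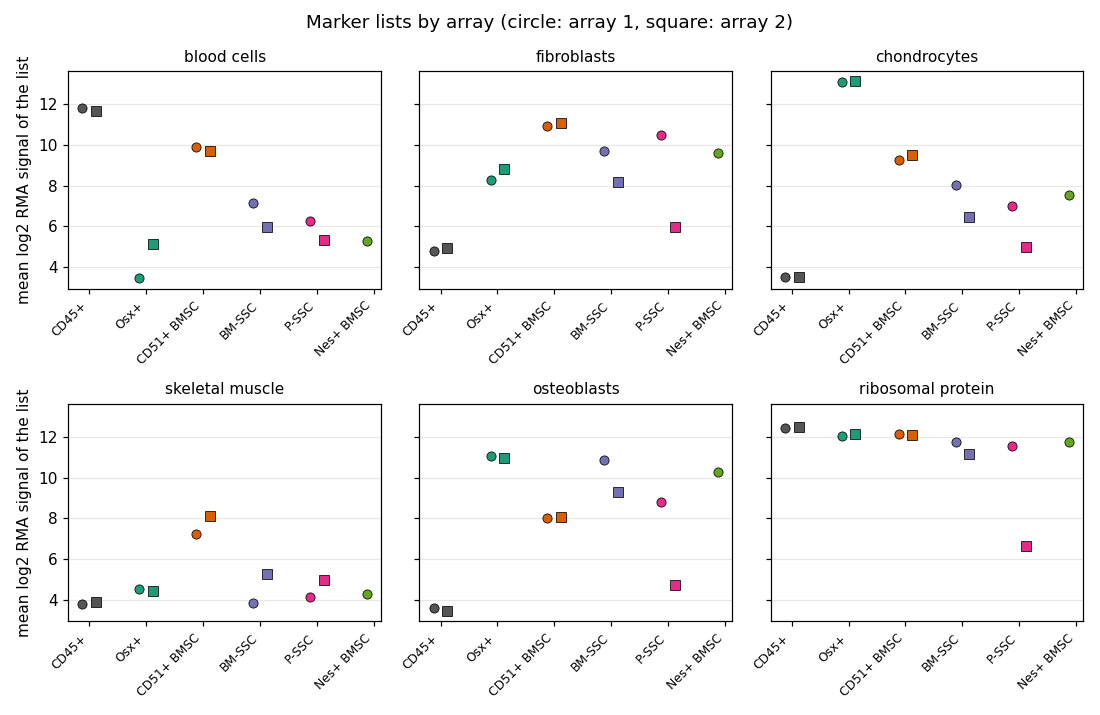
Mean log2 RMA signal of 6 marker lists (y axis) on every array, by population (x axis), with array 1 as a circle and array 2 as a square. CD51+ BMSCs carry the highest fibroblast and muscle means and a blood mean of 9.71 to 9.89, Osx+ cells carry the highest chondrocyte mean, and P-SSC array 2 has a ribosomal mean of 6.66.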

How the data were processed

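Elastic fiber gene signals came from 11 Affymetrix mouse A430 arrays of sorted cells. The authors made the deposited log2 values with RMA in Partek GS and R, which corrects background, quantile-normalizes across arrays and summarizes each probe set, and versions were not given in the sources used here. RMA equalizes probe signals across arrays before they are summarized, so a difference is relative to other transcripts. The deposited probe set values were not fully equalized. Array medians ran from 4.43 (CD45+ array 2) to 4.94 (P-SSC array 2). Upper quartiles ran from 5.84 (BM-SSC array 2) to 6.69 (CD45+ array 2). The deposited values were used without further scaling or filter. Of 45101 probe sets, 64 control sets were left out and 45037 tested. Of these, 34945 carry 1 gene symbol, 932 several and 9160 none in the platform annotation. A gene was read from its brightest single-symbol probe set on average.

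With 1 mean for each population, all 11 arrays were fitted together in limma 3.58.1 in R 4.3.3 (5 residual and 2.65 prior degrees of freedom). Each p-value was adjusted (Benjamini-Hochberg) over the tested probe sets of its comparison, and a probe set passed under 0.05. The 11 comparisons were not adjusted against each other. With 2 arrays per population, the number of arrays limits the precision.

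The members, the pathway and marker lists were chosen with earlier results of these data known, and none is independent evidence. Named were all members, up to 3 genes per pathway role with the highest F statistic, the 2 genes nearest to each member and the 5 nearest to their mean, and, of the marker lists, sorted genes. Alternatives were other scalings, filters, variance models and probe set rules, a fit of the compared groups only, the sample number as a block, and leaving out each array. Leaving out array 2 of both SSC populations and array weights were chosen after seeing the data.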

Additional observations from a re-analysis of the deposited data

How the results depend on the processing

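Of the 14 differences called for single members, 294 values under the alternatives kept their direction (0 reversed), and 207 still passed while 87 did not. Members passing depended on the fit, as follows. With only the compared groups in the fit, 0 passed in P-SSCs against CD45+ cells, 8 in Osx+ against CD45+ cells and 7 in CD51+ BMSCs against Osx+ cells, where 0%, 37.4% and 18.8% of all probe sets passed. Quantile normalization gave 5 (P-SSC, beside 6.35% of all probe sets), 3 (BM-SSC, 5.40%) and 1 (Osx+, 6.08%) against CD45+ cells. It gave 0 in CD51+ BMSCs against Osx+ cells (1.23%). Median centring gave 1 in the F test (beside 7.02%), 0 in Osx+ against CD45+ cells (9.37%) and 1 in CD51+ BMSCs against Osx+ cells (2.27%). A variance trend with robust estimation gave 1 in CD51+ BMSCs against Osx+ cells (2.26%). Without dim probe sets, 2 passed in BM-SSCs against CD45+ cells (beside 13.0% of those kept) and 1 in CD51+ BMSCs against Osx+ cells (2.93%). With 1 probe set per gene, 2 passed in BM-SSCs against CD45+ cells, beside 11.6% of genes. The mean of a gene's probe sets gave 6 (P-SSC, 17.5% of genes), 3 (BM-SSC, 15.3%) and 4 (Osx+, 14.9%) against CD45+ cells. Array weights gave 9 in the F test, beside 65.3% of all probe sets. They gave 1 (P-SSC, beside 1.30%), 3 (BM-SSC, 6.82%) and 9 (Osx+, 40.0%) against CD45+ cells and 7 in CD51+ BMSCs against Osx+ cells (23.1%). The cause was not tested.

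The sample numbers of the titles did not pair the arrays in most populations. Deviations of same-numbered arrays correlated at -0.267 to 0.0115 between all populations other than BM-SSCs with P-SSCs. Between BM-SSCs and P-SSCs they correlated at 0.784, and array 2 stood apart in both. What these 2 arrays share was not tested. With the replicate block, 5 members passed in the F test, beside 6.93% of all probe sets. In that fit 2 passed in BM-SSCs against CD45+ cells (7.94%) and 0 in CD51+ BMSCs against Osx+ cells (2.00%).

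Without array 2 of both SSC populations, 9 members passed the F test, beside 69.2% of all probe sets. The number of members called rose in every comparison. These members are given above beside the share of all probe sets called. The share of all probe sets called higher rose as well, for example from 2.48% to 22.6% in P-SSCs against CD45+ cells.

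Leaving out 1 array at a time changed the members passing in the F test and every comparison except BM-SSCs against Nes+ BMSCs. The share of all probe sets passing changed with the array left out as well. Such a fit leaves 1 array in a population or drops the Nes+ BMSCs, so these counts are not listed. The lone array of a population was assumed to vary like the others. Calls against CD45+ cells were lost without either CD45+ array, and in Osx+ cells also without a CD51+ or Osx+ array. The share of all probe sets called higher fell in each of these fits as well. In BM-SSCs the call was also lost without BM-SSC array 2, where that share rose. Among uncalled differences, that of Fbn2 in CD51+ BMSCs against CD45+ cells ran from -0.0794 (without CD51+ replicate 2) to 0.63 (without CD51+ replicate 1). That of Emilin1 in P-SSCs against CD45+ cells ran from -2.33 (without P-SSC replicate 1) to 1.05 (without P-SSC replicate 2, or without array 2 of both SSC populations).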
